A study of Mus musculus with 2 samples.

Results

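The mitochondrial carriers are proteins of the inner mitochondrial membrane that pass metabolites, nucleotides and cofactors between the cytosol and the mitochondrial matrix. Their genes were taken from both deposited expression tables as every row whose symbol was Slc25a or Ucp followed by a number, which gave 47 of 22558 genes. The rule used symbols alone and no measured value, though it was set with earlier results of these data known. Of the 50 RefSeq genes that carry such a name, the other 3 are listed in the files under an older symbol and are described at the end.

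The study sequenced RNA of cells that flow cytometry had sorted, as 2 libraries, from untreated breast tumours of the inbred mouse strain FVB. One library held tumour-initiating cells (TIC), the fraction able to start new tumours, and the other held non-tumorigenic cells (NTC). The sources used here do not give the tumour model, any transgene, the age of the mice, the number of tumours pooled or the antigens used for sorting. With 1 library per group there was no replicate, so no test, SD or p-value can be given, and every difference describes this pair of libraries alone.

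Most carriers exchange a solute on one side of the membrane for another on the other side. The ADP/ATP carriers send ATP out of the matrix and bring ADP in, and the phosphate carrier supplies the phosphate for its synthesis. Others move citrate, malate, aspartate and glutamate, which links the tricarboxylic acid cycle to lipid synthesis and carries reducing power across the membrane. Uncoupling proteins are named after Ucp1, which lets protons back into the matrix in brown fat and so produces heat.

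The sequences shown first are those of 2 pairs of related carriers whose more abundant gene differed between the libraries. Slc25a4 and Slc25a5 encode the ADP/ATP carriers Ant1 and Ant2, and over 894 aligned coding bases they were identical at 692 (77.4%). The longest run of identical bases between them was 20, written in capitals here within bases 292 to 371 of each coding sequence (GENCODE M21 transcripts).
Slc25a4: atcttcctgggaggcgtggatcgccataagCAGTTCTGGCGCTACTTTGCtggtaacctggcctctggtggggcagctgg
Slc25a5: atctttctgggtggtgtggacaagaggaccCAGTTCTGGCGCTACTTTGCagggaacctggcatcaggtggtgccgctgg
Fragments of 50 bases can therefore tell this pair apart. The sources used here do not give the read length.

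The 250 bases before the transcription start of both ADP/ATP carriers, and of the coenzyme A carriers Slc25a42 and Slc25a16, follow from RefSeq (GRCm38.p6), because each pair differed in opposite directions. Capitals mark the Sp1 site GGGCGG on either strand. The windows lie at chr8:46211063-46211312 (minus strand) for Slc25a4, chrX:36795347-36795596 (plus strand) for Slc25a5, chr8:70212282-70212531 (minus strand) for Slc25a42 and chr10:62920383-62920632 (plus strand) for Slc25a16.
Slc25a4: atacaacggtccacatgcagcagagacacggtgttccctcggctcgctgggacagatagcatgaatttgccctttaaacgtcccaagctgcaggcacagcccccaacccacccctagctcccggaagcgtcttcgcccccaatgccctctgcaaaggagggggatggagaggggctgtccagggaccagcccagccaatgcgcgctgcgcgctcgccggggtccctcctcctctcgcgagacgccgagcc
Slc25a5: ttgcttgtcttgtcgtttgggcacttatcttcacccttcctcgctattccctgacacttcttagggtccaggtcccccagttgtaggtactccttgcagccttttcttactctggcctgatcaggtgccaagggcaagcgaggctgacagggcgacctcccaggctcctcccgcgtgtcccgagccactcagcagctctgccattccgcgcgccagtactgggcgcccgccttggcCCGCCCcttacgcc
Slc25a42: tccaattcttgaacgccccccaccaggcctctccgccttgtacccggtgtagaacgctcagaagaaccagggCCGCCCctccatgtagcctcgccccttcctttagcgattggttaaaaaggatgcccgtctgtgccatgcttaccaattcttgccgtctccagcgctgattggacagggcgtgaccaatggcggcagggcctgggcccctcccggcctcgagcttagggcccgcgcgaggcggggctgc
Slc25a16: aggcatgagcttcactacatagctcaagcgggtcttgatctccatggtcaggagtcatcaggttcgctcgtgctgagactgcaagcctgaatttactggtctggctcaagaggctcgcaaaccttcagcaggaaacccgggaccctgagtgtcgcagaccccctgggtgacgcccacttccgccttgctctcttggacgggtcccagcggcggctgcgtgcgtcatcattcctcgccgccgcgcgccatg
RefSeq promoters were matched for 37 of the 47 members, in 46 windows. A gene was counted if any of its windows held the letters, and the window printed above is the first listed for each gene. The Sp1 letters were found in 25 of these 37 (67.6%), against 35.4% of 27025 genes with a promoter entry. Among genes that averaged 1 FPKM or more the shares were 75.9% of 29 members and 66.4% of 8458 genes. The letters of 4 further motifs were searched on both strands, namely GCATGCGC (NRF1), CCGGAAGT (ETS factors), TCAAGGTCA (oestrogen-related receptors) and TATAAA. The NRF1 letters were found for 1 of the 37 members (Slc25a31), the ETS letters for 1 (Slc25a20), TATAAA for 2 (Slc25a18 and Slc25a21) and TCAAGGTCA for none. Among all 27025 genes these shares were 2.56% for NRF1, 3.23% for ETS, 0.422% for oestrogen-related receptors and 14.3% for TATAAA. For the 8458 genes that averaged 1 FPKM or more they were 5.21%, 6.94%, 0.343% and 7.52%, in the same order. Of the 29 members that did so, 3.45% held the ETS letters and 0 held any of the other 3. The printed windows hold none of these 4, so no motif overlaps another there.

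The carriers as a family had the same median ratio as all genes in these libraries, while single carriers differed by up to 10.4-fold. Levels are in FPKM (fragments scaled by transcript length and sequencing depth), and ratios are log2((TIC + 1)/(NTC + 1)), which understates the difference of low genes. A mean of at least 1 FPKM over both libraries was reached by 37 of the 47 members. Of these, 2 (5.41%) were higher in TIC by 2-fold or more and 5 (13.5%) were lower by 2-fold or more, 18.9% in all. Among all 12004 genes that reached this mean, 14.6% were higher and 13.8% lower by as much, 28.4% in all. Lower values in TIC of any size were seen for 23 of the 37 members, and for 59.1% of all genes. The median ratio was -0.16 over the members and also -0.16 over all genes, and 19 of the 37 members lay below the median gene. With ratios centred on the median gene the members' median was -0.00079, and with each library scaled to the same summed FPKM it was 0.0030, so the sign of this small median depends on the scaling. That last scaling moved the median of all genes to -0.0065, and gene groups are therefore also counted against the median gene below. In a sorted pool of cells, fewer cells of a type and less RNA per cell cannot be told apart.

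**Figure D1:**
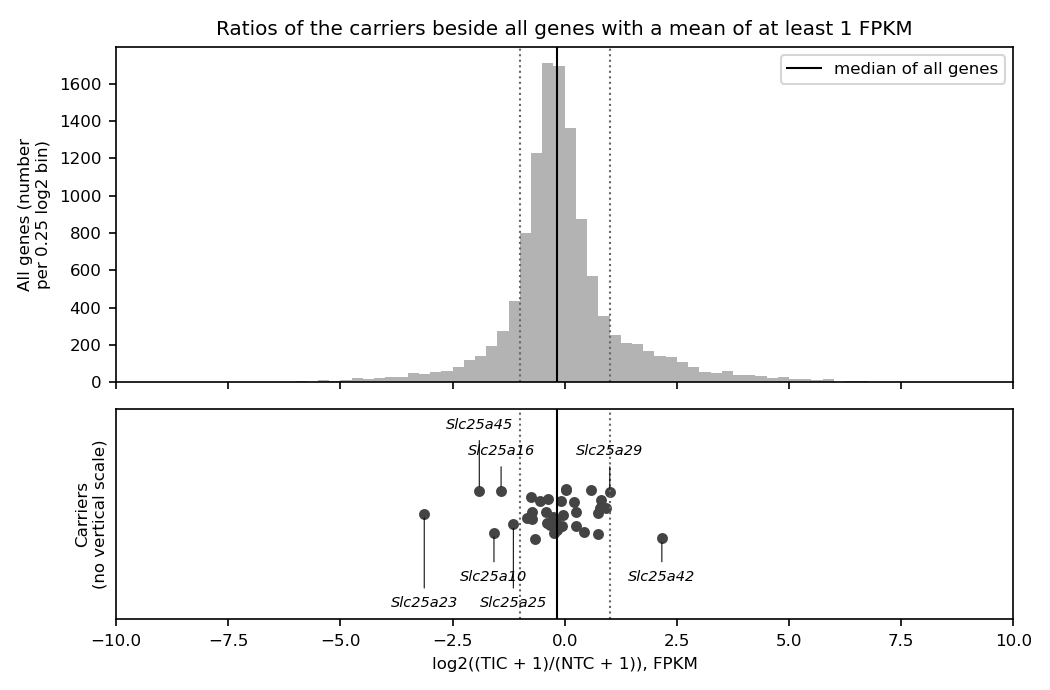
Ratios of TIC to NTC on the log2(FPKM + 1) scale for the 12004 genes averaging 1 FPKM or more (histogram above) and for the 37 carriers that reached it (points below, spread vertically for legibility only). Black lines are the medians, dotted lines mark 2-fold, and the 7 named carriers lie past it.

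The family summed to 1147 FPKM in TIC and 1238 FPKM in NTC, which was 0.345% and 0.329% of the summed FPKM of all genes in TIC and in NTC. In each library 4 members exceeded 100 FPKM, and they were Slc25a3, Slc25a4, Slc25a5 and Ucp2 in both. They held 69.1% of the family's sum in TIC and 64.1% in NTC. Without them the family summed to 354.6 FPKM in TIC and 444.7 FPKM in NTC. The order of levels within the family was largely shared between the libraries, with a Spearman correlation of 0.77 across the 37 members and 0.68 across all 12004 genes, which are descriptions across genes of the same pair of libraries. The order changed at the top, where Ucp2 and Slc25a4 came first in TIC, and Slc25a5 and Slc25a3 in NTC.

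**Figure D2:**
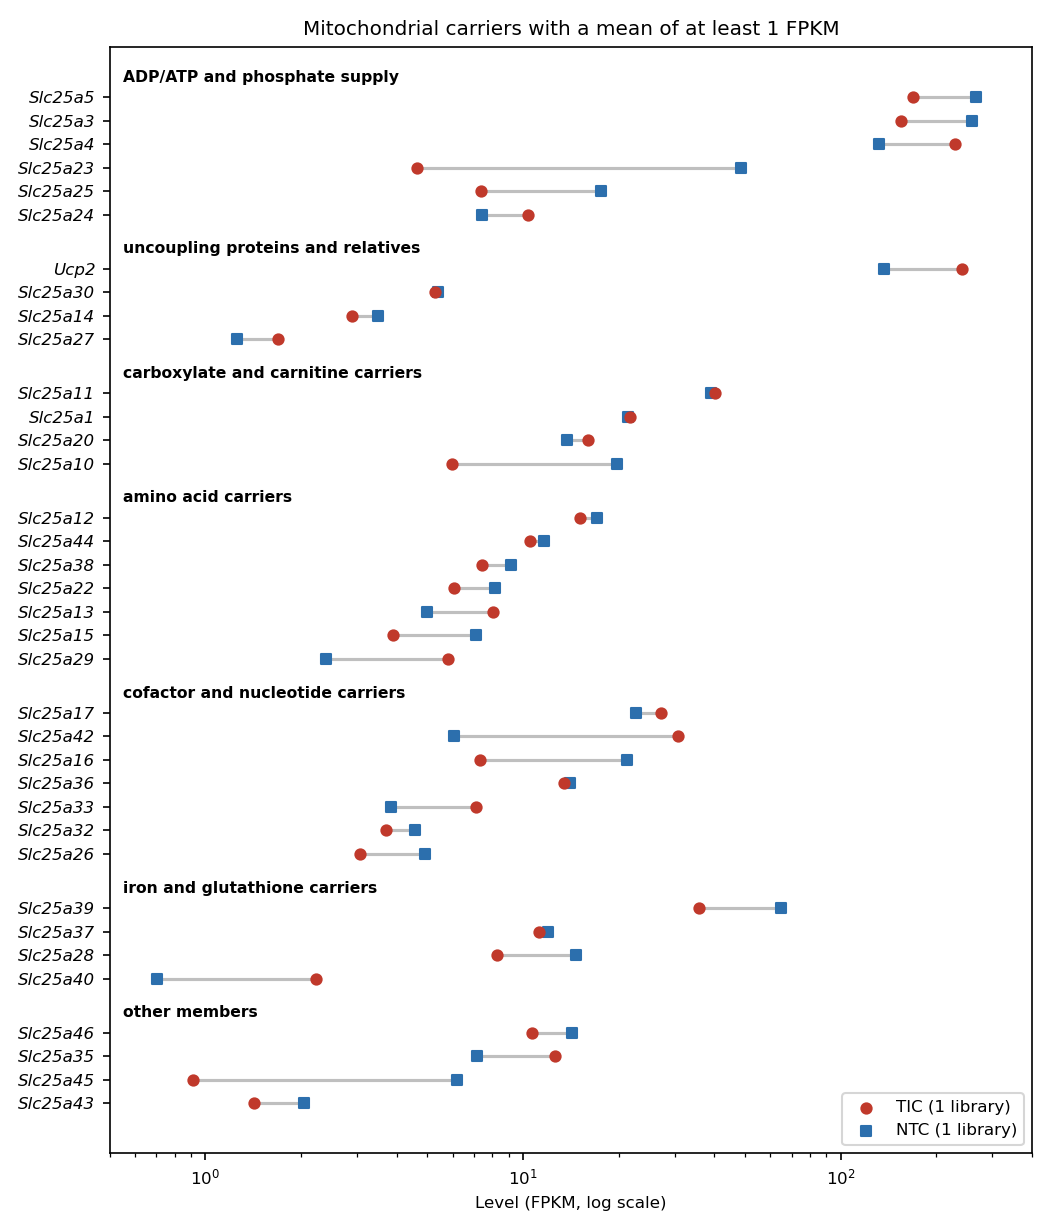
Level in FPKM (log axis) of 36 carriers that averaged 1 FPKM or more, by role, with TIC as circles and NTC as squares, 1 library each. The longest lines are those of Slc25a23, Slc25a45 and Slc25a42.

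Depth set how firmly these values can be read. Values of short receptor genes between 0.035 and 0.065 FPKM times kb had a median of 0.0475 in TIC and 0.0463 in NTC. Taken as 1 read, this gives about 21.0 and 21.6 reads per kb at 1 FPKM in TIC and in NTC. The chosen window bounds both medians, so it limits how far these depths could differ. On that rough estimate the 7 members past 2-fold rested on 50.1 to 3515 reads in a library, and the 10 members below the mean of 1 FPKM on at most 36.0. Reads copied by amplification are not independent molecules, so such numbers cover counting only. For 6 members at least 10% of the transcript was shared with another annotated gene, as 50-base stretches on either strand or as overlapping exons. They are Slc25a5, Slc25a10, Slc25a33, Slc25a35, Slc25a36 and Slc25a40, and their levels are uncertain, since how such reads were assigned is not stated.

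Among the lists of cell type markers examined, those of the mammary layers differed most between the libraries. All 9 basal and myoepithelial markers were higher in TIC by 2-fold or more, summing to 4292 FPKM in TIC and 41.4 FPKM in NTC, and all 9 luminal markers were lower by 2-fold or more, summing to 75.0 FPKM in TIC and 5843 FPKM in NTC. Every carrier difference below therefore stands beside this lineage difference, and its part in the carrier results was not tested. Of 7 fibroblast markers 4 passed 2-fold, all higher in TIC, with sums of 173.8 FPKM in TIC and 2.44 FPKM in NTC, mostly from Dcn (151.8 FPKM in TIC, 1.51 FPKM in NTC). The other 3 fibroblast markers stayed below a mean of 1 FPKM. Col1a1 had 0.459 FPKM in TIC and 0.339 FPKM in NTC, and Col3a1 (0.221 FPKM in TIC) and Lum (0.573 FPKM in TIC) were listed at 0 in NTC. The 7 endothelial markers summed to 7.77 FPKM in TIC and 1.01 FPKM in NTC, and 6 of them stayed below a mean of 1 FPKM. Cd34 was the highest (4.68 FPKM in TIC), and Cd34, Kdr (1.61 FPKM in TIC) and Emcn (0.134 FPKM in TIC) were listed at 0 in NTC. Vwf went the other way, with 0.0148 FPKM in TIC and 0.663 FPKM in NTC. The 9 leukocyte markers summed to 2.52 FPKM in TIC and 2.23 FPKM in NTC, with Ptprc, Cd3e, Emr1 and Laptm5 listed at 0 in both. The part of these cells in the results was not tested.

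Among the carriers that supply ADP, ATP and phosphate, Ant1 was higher in TIC and Ant2 was lower, while their sums were nearly equal, with a difference (TIC minus NTC) of -0.737 FPKM. Slc25a4 (Ant1, the form best known from heart and skeletal muscle) had 229 FPKM in TIC and 132 FPKM in NTC (chromosome 8, 47292698 to 47296363, build mm9), a ratio of 0.79. Slc25a5 (Ant2, a form known from dividing cells) had 168 FPKM in TIC and 266 FPKM in NTC (chromosome X, 34335647 to 34338801), a ratio of -0.65. Neither gene reached 2-fold. Together with Slc25a31 (Ant4, known from the testis), which was listed at 0 in both, they summed to 397 FPKM in TIC and 398 FPKM in NTC. Ant1 made up 57.6% of this sum in TIC and 33.3% in NTC, so the more abundant form was Ant1 in TIC and Ant2 in NTC. Of the 50-base stretches of Slc25a5, 46.6% also occur in transcripts of 9 other annotated genes, whereas none of those of Slc25a4 do. The level of Slc25a5 and the sum are thus uncertain, and that of Slc25a4 is not touched by this sharing. Skeletal and heart muscle markers were near 0, with 8 of 9 below a mean of 1 FPKM and Myh4, Myh2, Actc1 and Myh6 listed at 0 in both libraries. Their sum was 2.55 FPKM in TIC and 9.08 FPKM in NTC, mostly Mb (2.47 FPKM in TIC, 8.13 FPKM in NTC).

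Slc25a3, the phosphate carrier, was lower in TIC, with 155 FPKM in TIC and 259 FPKM in NTC (chromosome 10, 90579323 to 90586708), a ratio of -0.74. Its difference of 1.67-fold was close to that of Ant2 (1.58-fold), and both lay within 2-fold.

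The calcium-regulated carriers that exchange ATP-Mg for phosphate showed the largest difference of the family. Slc25a23 had 4.64 FPKM in TIC and 48.4 FPKM in NTC (chromosome 17, 57183134 to 57199286), a ratio of -3.13 and the lowest of the 37 members. Slc25a25 was also lower, with 7.38 FPKM in TIC and 17.5 FPKM in NTC (chromosome 2, 32270007 to 32310996), a ratio of -1.14, which was -0.86 with a pseudocount of 5 FPKM and -0.98 when centred on the median gene. Slc25a24 differed in the other direction and within 2-fold, with 10.3 FPKM in TIC and 7.41 FPKM in NTC (0.43). The group, which also holds Slc25a41 (listed at 0 in TIC, 0.256 FPKM in NTC), summed to 22.4 FPKM in TIC and 73.6 FPKM in NTC, a 3.29-fold lower sum in TIC. Slc25a23 made up 20.7% of this sum in TIC and 65.8% in NTC, and Slc25a24 46.2% in TIC and 10.1% in NTC. The leading isoform was thus Slc25a24 in TIC and Slc25a23 in NTC. Of the mitochondrial calcium uniporter, the channel by which calcium enters the matrix, 4 genes of 9 symbols listed were in the files. Of these, 3 reached the mean of 1 FPKM and none was 2-fold different (median 0.28), with Efha1 at 25.1 FPKM in TIC and 20.6 FPKM in NTC and Cbara1 at 9.06 FPKM in TIC and 7.14 FPKM in NTC.

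**Figure D3:**
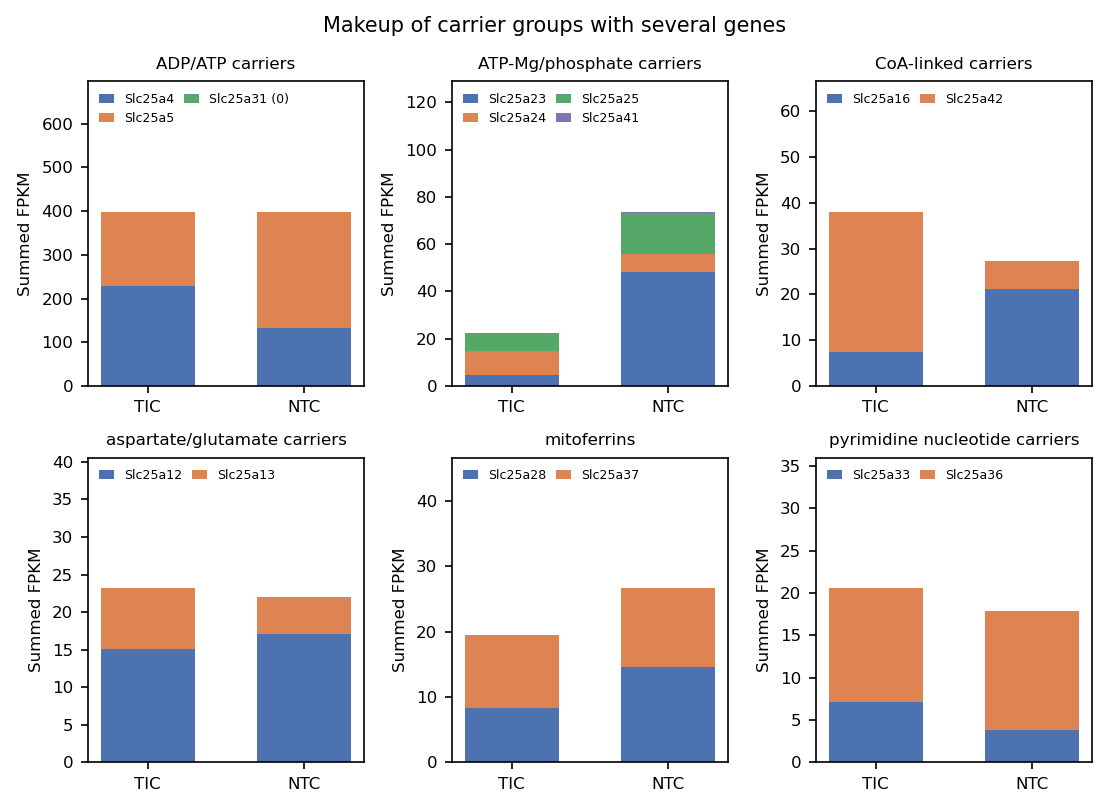
Summed FPKM of 6 groups of carriers with the same or a related substrate, TIC left and NTC right, 1 library each, coloured by gene. The ADP/ATP carriers sum to 397 FPKM in TIC and 398 FPKM in NTC with opposite majorities. The coenzyme A, ATP-Mg and mitoferrin groups also change their leading gene.

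Among the uncoupling proteins, Ucp2 accounted for nearly all of the signal and was higher in TIC. It had 240.5 FPKM in TIC and 137 FPKM in NTC (chromosome 7, 107641854 to 107650682), a ratio of 0.81, which is within 2-fold. It was the highest member in TIC and stood below Slc25a5 and Slc25a3 in NTC, at ranks 164 and 359 of 22558 genes in TIC and in NTC. Of its exon bases 7.65% overlap Dnajb13 on the opposite strand. Ucp2 is a broadly expressed relative of Ucp1 and is reported to export carbon compounds from the matrix. Ucp1 was at 0.259 FPKM in TIC and Ucp3, known from skeletal muscle, at 0.0756 FPKM, and the NTC table lists both at 0. These values correspond to about 8.90 reads for Ucp1 and 3.89 for Ucp3. Markers of white and brown fat cells were near 0, with all 9 below a mean of 1 FPKM and sums of 0.180 FPKM in TIC and 0.869 FPKM in NTC. Adipoq, Pparg, Cidec, Retn and Cfd were listed at 0 in both. The more distant relatives Slc25a14 (2.89 FPKM in TIC, 3.49 FPKM in NTC), Slc25a27 (1.69 FPKM in TIC, 1.25 FPKM in NTC) and Slc25a30 (5.26 FPKM in TIC, 5.38 FPKM in NTC) were low and within 2-fold, and summed to 9.84 FPKM in TIC and 10.1 FPKM in NTC.

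Carriers of carboxylates split between a single large difference and values that hardly differed. Slc25a10, which exchanges malate or succinate for phosphate, had 5.97 FPKM in TIC and 19.8 FPKM in NTC (chromosome 11, 120353151 to 120362475), a ratio of -1.58. Of its exon bases 11.3% overlap Gm11788 on the opposite strand, so its level is uncertain. Slc25a1, which exports citrate for lipid synthesis, had 21.8 FPKM in TIC and 21.3 FPKM in NTC (0.03). Slc25a11, which exchanges oxoglutarate for malate, had 40.1 FPKM in TIC and 39.2 FPKM in NTC (0.03). Slc25a20, which brings acylcarnitines into the matrix for oxidation, had 16.0 FPKM in TIC and 13.7 FPKM in NTC (0.20). Slc25a21, a carrier of oxoadipate, was at 0.0415 FPKM in TIC, and NTC lists it at 0.

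The genes listed for citrate use and lipid synthesis did differ, though not all of them act on citrate itself. All 7 genes of this list had lower values in TIC, also against the median gene (median -1.17). By at least 2-fold 5 of them were lower, against 13.8% of all genes. This became 4 with ratios centred on the median gene and 3 with a pseudocount of 5 FPKM. Acacb (0.889 FPKM in TIC, 2.19 FPKM in NTC) reached the mean of 1 FPKM only through NTC. The citrate carrier itself lay at 0.03. Me1, malic enzyme, had 4.74 FPKM in TIC and 31.9 FPKM in NTC, the elongase Elovl6 had 3.91 FPKM in TIC and 11.7 FPKM in NTC, and Acly, which splits citrate, had 36.3 FPKM in TIC and 85.9 FPKM in NTC. The partners of Slc25a20 in the carnitine shuttle had no common direction, since 2 of 6 were higher in TIC and 1 lower by 2-fold or more, around a median of 0.02. Among all genes 14.6% were higher and 13.8% lower by as much. Cpt1c, a relative of carnitine palmitoyltransferase known from the brain, had 11.4 FPKM in TIC and 0.803 FPKM in NTC, so it reached the mean of 1 FPKM only through TIC. Crot, which acts in peroxisomes, had 23.5 FPKM in TIC and 4.73 FPKM in NTC. Crat, carnitine acetyltransferase, had 4.71 FPKM in TIC and 12.3 FPKM in NTC, and it was within 2-fold with a pseudocount of 5 FPKM.

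Of 9 carriers of amino acids 7 reached the mean of 1 FPKM, and 1 of them was past 2-fold, toward TIC, against 14.6% of all genes. Slc25a29, which moves basic amino acids such as arginine and lysine, had 5.80 FPKM in TIC and 2.39 FPKM in NTC (chromosome 12, 110064088 to 110074086). Its ratio of 1.01 lay just past the threshold, and it was 0.55 with a pseudocount of 5 FPKM. The aspartate/glutamate carriers of the malate-aspartate shuttle differed in opposite directions, with Slc25a12 (aralar) at 15.1 FPKM in TIC and 17.1 FPKM in NTC and Slc25a13 (citrin) at 8.01 FPKM in TIC and 4.98 FPKM in NTC. Citrin held 34.6% of their sum in TIC and 22.6% in NTC, and the sum was 23.1 FPKM in TIC and 22.1 FPKM in NTC. The ratio of Slc25a12 was -0.16, at the median of all genes, and that of Slc25a13 was 0.59. All 4 enzymes of the shuttle lay within 2-fold (median -0.21), with Mdh2 at 213 FPKM in TIC and 236.5 FPKM in NTC and Got2 at 71.0 FPKM in TIC and 85.9 FPKM in NTC.

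The remaining amino acid carriers that reached the mean of 1 FPKM had lower values in TIC, all within 2-fold. The ornithine carrier Slc25a15 of the urea cycle had 3.88 FPKM in TIC and 7.13 FPKM in NTC (-0.74). The glutamate carrier Slc25a22 had 6.05 FPKM in TIC and 8.13 FPKM in NTC (-0.37), and the second glutamate carrier Slc25a18, below the mean of 1 FPKM, had 0.0434 FPKM in TIC and 0.289 FPKM in NTC. Slc25a38, which supplies glycine for haem, had 7.43 FPKM in TIC and 9.18 FPKM in NTC (-0.27). Slc25a44, a carrier of branched-chain amino acids in brown fat, had 10.5 FPKM in TIC and 11.6 FPKM in NTC (-0.13). Slc25a2, the second ornithine carrier, had 0.434 FPKM in TIC and 0.387 FPKM in NTC, but its deposited locus spans 911.6 kb of chromosome 18, so this value may mix in other transcripts.

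Enzymes that use these amino acids included larger differences. Of 8 glutamate and ornithine genes that reached the mean, 1 was past 2-fold toward TIC and 2 were past it toward NTC (median -0.07), against 14.6% and 13.8% of all genes toward TIC and toward NTC. Oat, which interconverts ornithine and glutamate semialdehyde, had 43.3 FPKM in TIC and 10.7 FPKM in NTC. The arginases, which make ornithine, were lower, with Arg1 at 0.0673 FPKM in TIC and 14.3 FPKM in NTC and Arg2 at 0.605 FPKM in TIC and 5.10 FPKM in NTC. Both reached the mean only through NTC, and Arg2 was within 2-fold with a pseudocount of 5 FPKM. Of 9 genes of branched-chain amino acid breakdown 8 reached the mean, and these all had lower values in TIC, 6 of them below the median gene and none by 2-fold (median -0.40), with Bckdha at 20.4 FPKM in TIC and 28.3 FPKM in NTC and Bckdk at 18.4 FPKM in TIC and 24.8 FPKM in NTC. The other gene, Bcat1, a cytosolic aminotransferase, stayed below the mean with 1.37 FPKM in TIC and 0.00669 FPKM in NTC, and without the filter it was higher in TIC by more than 2-fold (1.24).

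The carriers linked to coenzyme A exchanged places between the libraries. Slc25a42, which brings coenzyme A into the matrix, had 30.7 FPKM in TIC and 6.06 FPKM in NTC (chromosome 8, 72708239 to 72736180), a ratio of 2.17 and the highest of the 37 members. Slc25a16, whose yeast relative is linked to coenzyme A in the matrix, had 7.32 FPKM in TIC and 21.2 FPKM in NTC (chromosome 10, 62383381 to 62409242), a ratio of -1.42. Slc25a42 was thus 4.19 times as high as Slc25a16 in TIC and 0.285 times as high in NTC. Their coding sequences were identical at 60.5% of 904 aligned bases with a longest shared run of 14, and no 50-base stretch of Slc25a16 occurs in another gene. In Slc25a42, 2.89% of such stretches occur in transcripts of 627 other genes. The 7 enzymes of coenzyme A synthesis lay within 2-fold (median -0.11), with Coasy at 13.4 FPKM in TIC and 23.8 FPKM in NTC and Pank3 at 17.1 FPKM in TIC and 16.4 FPKM in NTC.

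The other carriers of cofactors and nucleotides named here lay within 2-fold. Slc25a17, which acts in the peroxisomal membrane, had 27.2 FPKM in TIC and 22.6 FPKM in NTC (0.26). The pyrimidine nucleotide carriers differed from each other, with Slc25a33 at 7.11 FPKM in TIC and 3.83 FPKM in NTC (0.75) and Slc25a36 at 13.4 FPKM in TIC and 14.1 FPKM in NTC (-0.06), both uncertain through shared sequence. With each library scaled to the same summed FPKM, Slc25a33 was past 2-fold. Slc25a26, the carrier of the methyl donor S-adenosylmethionine, had 3.06 FPKM in TIC and 4.91 FPKM in NTC (-0.54). Slc25a32, which moves folate or the flavin FAD, had 3.69 FPKM in TIC and 4.58 FPKM in NTC (-0.25).

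Partner genes of these carriers went both ways. In the folate pathway 1 of 8 genes was past 2-fold toward TIC and 2 toward NTC (median -0.28), against 14.6% and 13.8% of all genes toward TIC and toward NTC. Mthfd1l of the mitochondrial branch had 10.8 FPKM in TIC and 4.80 FPKM in NTC, the cytosolic Shmt1 had 5.93 FPKM in TIC and 25.4 FPKM in NTC, and Amt of the glycine cleavage system had 1.39 FPKM in TIC and 4.25 FPKM in NTC. Mthfd1l and Amt were within 2-fold with a pseudocount of 5 FPKM, and Amt also when centred on the median gene. Among 10 genes of mitochondrial DNA and its nucleotide supply the median was -0.27. Of these 1 was at least 2-fold lower, against 13.8% of all genes. This was Cmpk2, a mitochondrial nucleotide kinase, listed at 0 in TIC with 3.45 FPKM in NTC. It reached the mean of 1 FPKM only through NTC, and it was within 2-fold with a pseudocount of 5 FPKM (-0.76).

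Of the iron and glutathione carriers, Slc25a28, Slc25a37 and Slc25a39 lay within 2-fold, and the call for Slc25a40 depends on the scale. Slc25a39, a carrier of glutathione, had 35.9 FPKM in TIC and 65.0 FPKM in NTC (-0.84). Its relative Slc25a40 had 2.23 FPKM in TIC and 0.702 FPKM in NTC (0.92), and it reached the mean of 1 FPKM only through TIC. Its levels differed 3.18-fold, and its ratio was 1.54 with a pseudocount of 0.1 FPKM, 1.09 when centred on the median gene and 1.43 with each library scaled to the same summed FPKM. Their sum was 38.1 FPKM in TIC and 65.7 FPKM in NTC, and Slc25a39 held 94.2% of it in TIC and 98.9% in NTC. Mitoferrins bring iron into the matrix for haem and iron-sulphur clusters. Slc25a28 (mitoferrin 2) had 8.28 FPKM in TIC and 14.6 FPKM in NTC (-0.75), whereas Slc25a37 (mitoferrin 1, known from red cell precursors) had 11.2 FPKM in TIC and 12.0 FPKM in NTC (-0.09). Mitoferrin 1 thus held 57.5% of the pair's sum in TIC and 45.0% in NTC. Erythroid markers were near 0, with 7 of 8 below a mean of 1 FPKM, sums of 0.518 FPKM in TIC and 6.38 FPKM in NTC, mostly Hba-a1 (0.106 FPKM in TIC, 5.55 FPKM in NTC), and Slc4a1 and Epb4.2 among those listed at 0 in both.

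Genes of the pathways that use the imported iron had mostly lower values in TIC. All 8 genes of haem synthesis that reached the mean of 1 FPKM were lower, also against the median gene (median -0.52). Of these 1 was lower by at least 2-fold, namely Alad with 8.05 FPKM in TIC and 29.5 FPKM in NTC. Alas2 stayed below that mean, with 0.412 FPKM in TIC and 0.464 FPKM in NTC (-0.05). Of 11 genes of iron-sulphur cluster assembly 9 had lower values, 8 of them below the median gene, and 2 were at least 2-fold lower (median -0.69), or 1 with a pseudocount of 5 FPKM. Nfs1, the cysteine desulphurase, had 6.65 FPKM in TIC and 20.7 FPKM in NTC. The share past 2-fold in these lists can be set beside 13.8% lower among all genes.

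Members with no assigned substrate, or with another role, included 1 large difference. Slc25a45 had 0.916 FPKM in TIC and 6.17 FPKM in NTC (chromosome 19, 5878466 to 5885768), a ratio of -1.90, and it reached the mean of 1 FPKM only through NTC. With a pseudocount of 5 FPKM it was within 2-fold. Slc25a46, an outer membrane protein that takes part in mitochondrial fission, had 10.7 FPKM in TIC and 14.3 FPKM in NTC (-0.39). Slc25a35 had 12.6 FPKM in TIC and 7.17 FPKM in NTC (0.74), but 31.6% of its exon bases overlap Rangrf on the opposite strand. Slc25a43 had 1.42 FPKM in TIC and 2.04 FPKM in NTC (-0.33). Slc25a34 (0.0754 FPKM in TIC, 0.0481 FPKM in NTC), Slc25a47 (0.559 FPKM in TIC, 0.602 FPKM in NTC) and Slc25a48 (0.508 FPKM in TIC, 0.112 FPKM in NTC) did not reach it. The 8 genes of mitochondrial fusion and fission were within 2-fold (median -0.33), with Fis1 at 35.1 FPKM in TIC and 42.6 FPKM in NTC and Dnm1l at 24.8 FPKM in TIC and 20.8 FPKM in NTC.

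Some members lie next to each other in the genome and still had very different levels. Ucp3 and Ucp2 are 6.91 kb apart on chromosome 7, yet Ucp2 had 240.5 FPKM in TIC and Ucp3 0.0756 FPKM. Slc25a41 and Slc25a23 are 2.06 kb apart on chromosome 17, and in NTC they had 0.256 and 48.4 FPKM. Slc25a43 and Slc25a5 are 18.4 kb apart on chromosome X, and Slc25a29 and Slc25a47 15.3 kb apart on chromosome 12. In the last pair the ratios were 1.01 for Slc25a29 and -0.04 for Slc25a47.

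The route by which carrier proteins reach the inner membrane had lower values in TIC, by a small amount for most genes. Carriers are made in the cytosol, handed through the outer membrane by the Tomm70a receptor and the Tomm40 pore, escorted by small Timm chaperones and inserted by the Timm22 complex. All 11 of these genes found in the files were lower in TIC, 2 of them by at least 2-fold (13.8% of all genes were lower by as much), and the median was -0.29, with 9 below the median gene. Timm8a1 had 16.6 FPKM in TIC and 36.8 FPKM in NTC, and Timm9 had 13.7 FPKM in TIC and 29.0 FPKM in NTC. Neither stayed past 2-fold with a pseudocount of 5 FPKM, when centred on the median gene or with each library scaled to the same summed FPKM. The VDAC channels, through which metabolites cross the outer membrane, lay within 2-fold and all 3 below the median gene, with a median of -0.42. Vdac1 had 94.1 FPKM in TIC and 117 FPKM in NTC, and Vdac2 had 54.1 FPKM in TIC and 72.8 FPKM in NTC. Of 11 regulators of mitochondrial gene expression 10 reached the mean of 1 FPKM, with a median of -0.12. Past 2-fold were 1 toward TIC, Ppara (2.79 FPKM in TIC, 0.403 FPKM in NTC), and 1 toward NTC, Esrrg (0.744 FPKM in TIC, 3.82 FPKM in NTC). Across all genes 14.6% were past 2-fold toward TIC and 13.8% toward NTC. Ppara reached the mean of 1 FPKM only through TIC and Esrrg only through NTC, and neither was past 2-fold with a pseudocount of 5 FPKM.

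**Figure D4:**
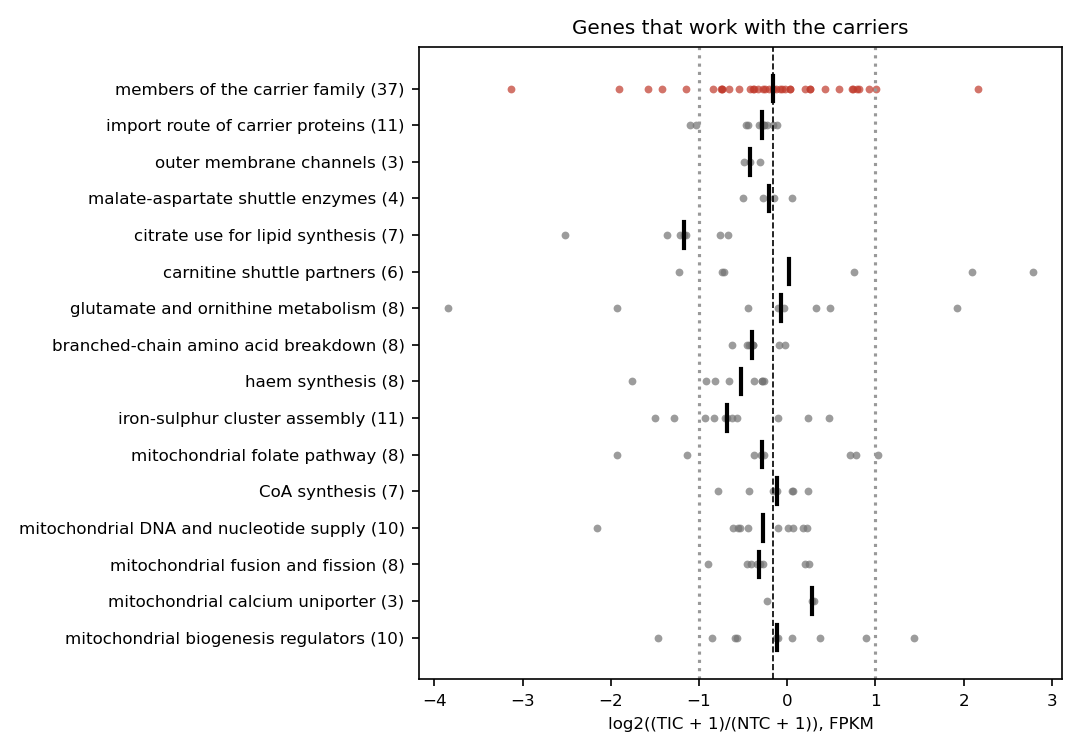
Ratios of TIC to NTC on the log2(FPKM + 1) scale for the 37 carriers (top) and for lists of genes that work with them, each point a gene that averaged 1 FPKM or more, with their number in brackets. Black bars are list medians, the dashed line is the median of all 12004 genes at -0.16, and the list of citrate use for lipid synthesis has the lowest median at -1.17.

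Of the carriers listed under other symbols 1 reached the mean of 1 FPKM, and it lay within 2-fold. Mcart1 (now Slc25a51, the carrier of NAD) had 37.4 FPKM in TIC and 27.6 FPKM in NTC (0.43), Mcart6 (now Slc25a53) had 0.868 FPKM in TIC and 0.0614 FPKM in NTC, and 4930443G12Rik (now Slc25a54) was listed at 0 in both. Mcart1 and Mcart6, taken with the related outer membrane proteins and the pyruvate carrier but without 4930443G12Rik, made a list of 6 genes found. Of these 5 reached the mean of 1 FPKM and the median was -0.66, with Mtch1 at 37.6 FPKM in TIC and 49.5 FPKM in NTC and Brp44 at 25.8 FPKM in TIC and 49.9 FPKM in NTC.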

How the data were processed

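RNA sequencing of 1 TIC and 1 NTC library was used as the authors deposited it, as FPKM per gene in a table for each library. Per the labels' protocols, 15 ng of total RNA was amplified to cDNA before library construction, which can change a gene's share with its length and base composition. Build mm9 and the tools CASAVA 1.8.2, TopHat 1.4.0, Cufflinks and Cuffdiff are listed, per the submitters' processing notes, without roles or settings. The locus heading in the files names a human build, but 99.7% of 20009 shared symbols lay on the same chromosome as in mouse GRCm38. Only 4.41% of starts lay within 1 kb of it, so loci are given in mm9. Starts were 1 below the GRCm38 start for 197 genes and equal for 11, so 1 was added.

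Ratios were log2((TIC + 1)/(NTC + 1)), and genes averaging 1 FPKM or more were kept and counted at 2-fold. No test was possible, and counts of members, and of related genes past 2-fold, can be read against the 14.6% higher and 13.8% lower among all genes. Every member but 1, which is counted and not reported singly here, is named. Of each related list, up to 3 genes past 2-fold are named in each direction, by size of ratio, or otherwise the 2 with the highest mean. The members, lists, markers and settings were chosen with earlier results of these data known. Depth was estimated from low values between 0.035 and 0.065 FPKM times kb of receptor genes shorter than 1.5 kb, in 22 genes for TIC and 38 for NTC. The longest coding transcript of each member in GENCODE M21 gave lengths, shared 50-base stretches and exon overlaps. The calculation of ratios was tested on simulated data. Python 3.11.15, numpy 2.4.6, pandas 2.3.3, scipy 1.17.1 and matplotlib 3.10.9 were used.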

Additional observations from a re-analysis of the deposited data

How the results depend on the processing

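No paired analysis was possible because each group had 1 library. The 2 members past 2-fold higher in TIC and the 5 lower became 1 and 3 with a pseudocount of 5 FPKM, 3 and 5 with 0.1 FPKM, 1 and 4 among members averaging 5 FPKM or more, 2 and 5 without a filter, 3 and 4 with ratios centred on the median gene and 4 and 5 with each library scaled to the same summed FPKM. Without the 6 members that share sequence, an alternative chosen after seeing the data, they were 2 and 4. The members' median was -0.10 with a pseudocount of 5 FPKM, -0.17 with 0.1 FPKM, -0.11 for those averaging 5 FPKM or more, -0.075 without a filter, -0.00079 when centred, 0.0030 when scaled and -0.21 without those that share sequence, against -0.16 as reported. Slc25a10, Slc25a16, Slc25a23 and Slc25a42 stayed past 2-fold in every planned setting. Slc25a25, Slc25a29 and Slc25a45 came within 2-fold with a pseudocount of 5 FPKM, and Slc25a25 also when centred. Slc25a40 came past 2-fold with 0.1 FPKM, when centred and when scaled, and Slc25a33 when scaled. Centring or scaling, which shift all genes, changed the sign of 5 of 37 members with ratios near 0, Slc25a12, Slc25a30, Slc25a36, Slc25a37 and Slc25a44. Low depth limits the 10 members below 1 FPKM, and 1 library per group limits all comparisons.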
